A study of Homo sapiens with 12 samples.

Results

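The nuclear-encoded subunits of the mitochondrial respiratory chain were followed by bulk RNA-seq in cells of the human gastric cancer line SNU638. Members were chosen by gene symbol: numbered NDUFA, NDUFB, NDUFC, NDUFS and NDUFV genes, SDHA to SDHD, CYC1, COX5 to COX8 subunits, and every symbol that begins with UQCR or ATP5. This matched 82 of the 17303 genes in the table, 36 of complex I, 4 of complex II, 10 of complex III, 12 of complex IV and 20 of complex V. NDUFA4, named after complex I, was counted with complex IV, where the protein is known to sit. Of the 82 members 79 had enough reads to be tested, and COX8C, UQCRHL and ATP5MGL did not. COX4I1 has a symbol that the pattern does not cover, and the 13 mitochondrially encoded subunits were not analysed here.

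The lines sh-SKA2-1, sh-SKA2-2 and sh-SKA2-3, here hairpins 1, 2 and 3, each expressed a different short hairpin RNA against SKA2, and the line sh-control, whose genotype is labelled wt, expressed a control hairpin. The SKA2 protein belongs to the SKA complex of the kinetochore and helps to keep chromosomes attached to microtubules in mitosis. All lines had been infected with lentivirus and selected with puromycin, and the labels do not say how many clones a line holds. Each line gave 3 libraries, 12 in all, with replicate numbers 1 to 3 from the sample titles. Nothing in the labels tells whether these were separate cultures, and the p-values given here therefore reflect spread among libraries that could be technical alone.

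Complexes I and II pass electrons from NADH and succinate to ubiquinone, complex III passes them on to cytochrome c, and complex IV reduces oxygen with them. Complexes I, III and IV pump protons as they do so, and complex V, the ATP synthase, lets the protons return and makes ATP. Apart from complex II, each joins mitochondrially encoded proteins with a larger number of nuclear-encoded subunits. In complexes I, III and V some of the nuclear-encoded subunits are themselves core or catalytic. The promoters of many of these nuclear genes are known to be bound by NRF1, by the ETS factor GABP and by YY1.

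The promoters that follow are those of a few members picked by hand, from the RefSeq promoter table (build GRCh38.p14). Each runs from 250 bases before to 50 after the annotated start, 5′ to 3′ on the gene's own strand. Capitals mark exact matches, on either strand, to the cores GCGCATGC (NRF1), CCGGAAG (ETS, the GABP family) or AAGATGGC (YY1). All of those printed hold a match, while 33 of the 65 members with an entry do (50.8%). Promoters of other members named below are not printed. ATP5MK and UQCRQ had the largest falls with hairpin 2, COX8A had the highest level in the control line, NDUFB4 was higher with hairpin 3, and SDHD was called in opposite directions with hairpins 2 and 3 in the main fit, with the hairpin 2 value turning under a correction for length described further on.
ATP5MK, chr10:103396426-103396725, minus strand: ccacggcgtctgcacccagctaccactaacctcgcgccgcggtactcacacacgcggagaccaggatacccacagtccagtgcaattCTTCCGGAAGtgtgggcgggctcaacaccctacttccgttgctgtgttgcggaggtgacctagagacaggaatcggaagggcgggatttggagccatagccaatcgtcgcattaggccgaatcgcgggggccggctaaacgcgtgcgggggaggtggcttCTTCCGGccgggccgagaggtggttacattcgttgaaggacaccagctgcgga
UQCRQ, chr5:132866392-132866691, plus strand: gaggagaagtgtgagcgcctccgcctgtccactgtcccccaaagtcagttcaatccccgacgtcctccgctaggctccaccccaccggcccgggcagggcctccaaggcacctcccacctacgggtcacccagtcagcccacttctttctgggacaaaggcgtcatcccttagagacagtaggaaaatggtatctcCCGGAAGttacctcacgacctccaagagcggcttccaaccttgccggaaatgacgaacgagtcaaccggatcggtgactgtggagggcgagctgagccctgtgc
COX8A, chr11:63974370-63974669, plus strand: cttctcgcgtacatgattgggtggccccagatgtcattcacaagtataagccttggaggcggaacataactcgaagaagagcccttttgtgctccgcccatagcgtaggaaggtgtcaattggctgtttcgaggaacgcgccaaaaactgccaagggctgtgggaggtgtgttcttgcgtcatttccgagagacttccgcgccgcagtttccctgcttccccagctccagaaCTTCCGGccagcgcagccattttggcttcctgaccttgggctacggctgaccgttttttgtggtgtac
NDUFB4, chr3:120596086-120596385, plus strand: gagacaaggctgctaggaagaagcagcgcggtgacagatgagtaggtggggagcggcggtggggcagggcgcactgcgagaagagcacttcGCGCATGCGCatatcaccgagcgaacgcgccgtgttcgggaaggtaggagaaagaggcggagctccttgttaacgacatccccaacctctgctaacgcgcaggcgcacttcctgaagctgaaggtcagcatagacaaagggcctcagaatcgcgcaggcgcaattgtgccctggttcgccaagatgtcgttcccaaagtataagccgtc
SDHD, chr11:112086623-112086922, plus strand: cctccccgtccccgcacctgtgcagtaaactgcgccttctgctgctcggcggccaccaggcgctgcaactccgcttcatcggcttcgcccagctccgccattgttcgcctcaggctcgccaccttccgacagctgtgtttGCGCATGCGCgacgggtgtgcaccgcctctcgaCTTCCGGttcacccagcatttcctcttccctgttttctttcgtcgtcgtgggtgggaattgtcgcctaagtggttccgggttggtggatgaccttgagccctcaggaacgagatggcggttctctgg
The ATP5MK promoter held 3 ETS matches, at positions -163, -160 and -3 from the start, the first pair overlapping on opposite strands. The UQCRQ promoter held 1 ETS match at -54 and the COX8A promoter 1 at -18. The NDUFB4 promoter held an NRF1 match on each strand, overlapping at -159 and -157, and the SDHD promoter held the same overlapping pair at -110 and -108 with 1 ETS match at -77.

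Of the 82 members, 65 had a promoter entry. The NRF1 core stood in 13 of the 65 (20.0%), against 5.47% of the 10400 promoters of tested genes and 3.27% of all 27305 promoters in the table. The ETS core stood in 19 (29.2%), against 19.4% of the tested genes' promoters and 10.7% of all. The YY1 core stood in 11 (16.9%), against 5.31% of the tested genes' promoters and 3.03% of all. At least 1 of the 3 cores stood in 33 members (50.8%), against 27.2% of the tested genes' promoters. By complex the share with any core was 14 of 31 for complex I, 2 of 3 for complex II, 4 of 7 for complex III, 4 of 10 for complex IV and 9 of 14 for complex V. A match is a run of letters and not a measured binding site.

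The 12 libraries held 14693343 to 16739155 expected counts over all genes. SKA2 itself had 26.0, 22.3 and 23.6 TMM-scaled CPM (expected counts scaled to library size) in the sh-SKA2-1 libraries, 23.3, 25.3 and 27.1 in sh-SKA2-2 and 24.9, 26.9 and 28.0 in sh-SKA2-3, against 126, 119 and 117 in sh-control, a log2 difference of -2.33 with hairpin 1, -2.25 with hairpin 2 and -2.18 with hairpin 3. All 7 epithelial markers looked for (EPCAM, CDH1, KRT8, KRT18, KRT19, CLDN4, CLDN7) were present, at a summed 1622 to 3762 TPM, the length-scaled unit of the deposited table. Of 15 markers of blood, fibroblast, endothelial and erythroid cells 13 were in the table, none at 0 in every library, at a summed 18.7 to 33.96 TPM. Levels of all genes shifted with transcript length in a way that differed between libraries. Length here is the effective length implied by the deposited counts and FPKM, and the slope is the change in log2 CPM, less the gene's 12-library mean, for each doubling of length. The slope was 0.08, 0.11 and 0.09 in the sh-SKA2-1 libraries, 0.15, 0.18 and 0.20 in sh-SKA2-2 and 0.09, -0.12 and -0.17 in sh-SKA2-3, against -0.06, -0.24 and -0.32 in sh-control. The first sh-SKA2-3 library and the first sh-control library thus stood apart from the other 2 of their lines, and values without them are given below beside the results they change.

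The members are short. Their median effective length was 522 nt against 2880 nt over the tested genes, 52 of the 79 lay in the shortest of 10 equal bins of tested genes by length, and 64 lay in the shortest 3 bins. The effective length is less than the transcript's by about a fragment, and for a few members the authors' estimate was much longer than the annotated coding transcripts, as for UQCRB, at 8188 nt against a GENCODE v29 median of 645 nt. The share of all counts that fell on the 82 members was 0.858%, 0.846% and 0.854% with hairpin 1, 0.863%, 0.830% and 0.793% with hairpin 2 and 0.856%, 1.05% and 1.12% with hairpin 3, against 0.959%, 1.14% and 1.23% in the control. The median member, measured as its log2 CPM less its 12-library mean, stood at -0.16, -0.21 and -0.19 in the sh-SKA2-1 libraries, -0.14, -0.20 and -0.28 in sh-SKA2-2 and -0.17, 0.24 and 0.36 in sh-SKA2-3, against -0.00, 0.37 and 0.49 in sh-control. The members were highest in the 4 libraries with the most negative length slopes, and the first sh-SKA2-3 library lay with the libraries of hairpins 1 and 2. The 81 tested cytosolic ribosomal protein genes, which are also short, had medians from -0.51 in the third sh-SKA2-2 library to 0.60 in the third sh-control library.

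**Figure D1:**
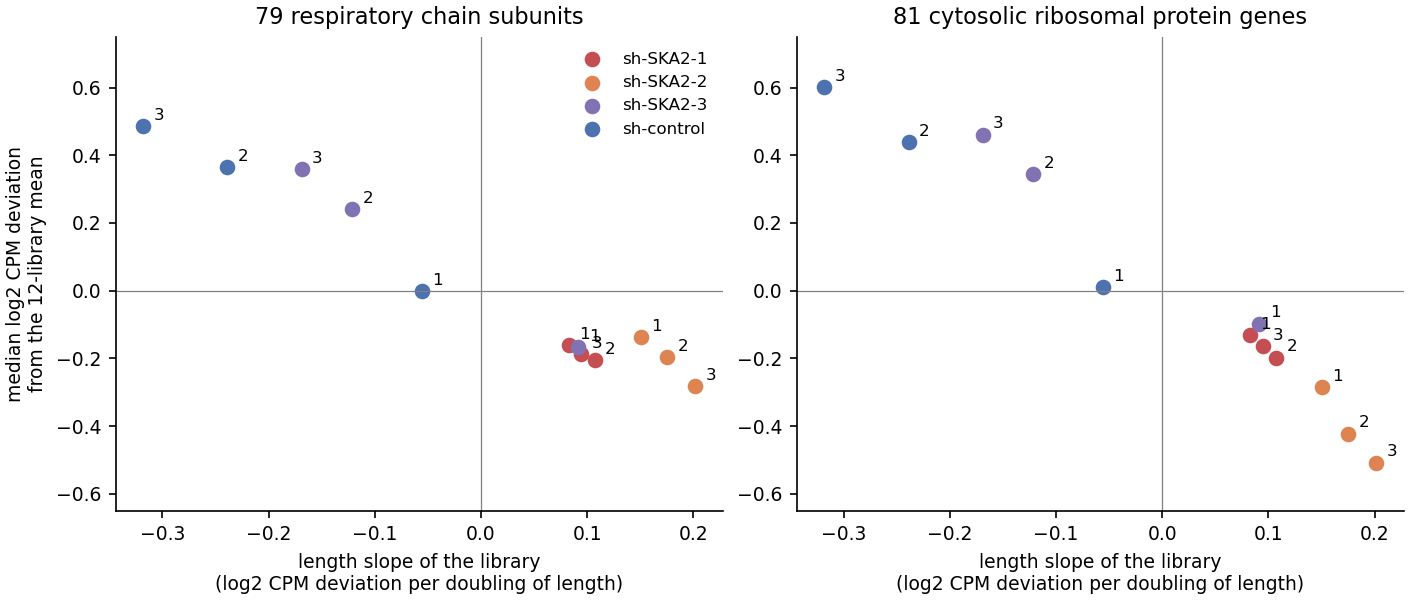
Each point is 1 library, labelled with its replicate number, with its length slope on the x axis (log2 CPM deviation per doubling of effective length) and the median log2 CPM deviation of a gene group from its 12-library mean on the y axis. The members (left) run from -0.28 in the third sh-SKA2-2 library to 0.49 in the third sh-control library, and the cytosolic ribosomal protein genes (right) run from -0.51 to 0.60 between the same 2 libraries.

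TPM are per length and allow levels of different subunits to be set side by side. In the control line the highest member was COX8A, a small complex IV subunit, at 1530 ± 99.7 TPM (SD, n = 3), followed by UQCRH, the hinge protein of complex III, at 1518 ± 91.4, and COX6A1 of complex IV at 1503 ± 109. These 3 did not differ beyond their spread. ATP5ME, a membrane subunit of the ATP synthase, at 1242 ± 111, and ATP5F1B, the catalytic beta subunit, at 1234 ± 52.5, came next and were within their spread of each other. By complex, the median tested member stood at 227 TPM for complex I, 211 for complex II, 149.9 for complex III, 365 for complex IV and 389 for complex V. All 4 complex II genes lay between 119 ± 13.8 (SDHC) and 262 ± 1.36 TPM (SDHB), whereas complex IV ran from COX6B2 at 1.18 ± 0.459 to COX8A.

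For COX6B and COX8 the ubiquitous isoform prevailed over the testis isoform. The tissue isoforms COX6A2, COX7A1 and COX7B2 were not in the table. COX6B2, the isoform known from testis, had 1.25 ± 0.470, 0.870 ± 0.245 and 0.617 ± 0.1002 TPM with hairpins 1, 2 and 3 and 1.18 ± 0.459 TPM in the control, where COX6B1 had 760 ± 86.6 TPM. COX8C, also a testis isoform, was listed at 0 TPM in all libraries of hairpins 1 and 2 and of the control, and averaged 0.120 ± 0.208 TPM with hairpin 3. Of the 3 genes that encode the identical c subunit of the ATP synthase rotor, ATP5MC1 had 468 ± 40.05, ATP5MC2 341 ± 15.9 and ATP5MC3 98.8 ± 4.35 TPM in the control. UQCRHL, a near copy of UQCRH, stayed at or below 1.41 TPM in each library, and reads of such close copies can be split between them by the authors' counting.

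Summed over all 82 members, TPM came to 26239.8, 26081.7 and 26318.8 in the sh-SKA2-1 libraries, 27895.5, 27509.1 and 25682.5 in sh-SKA2-2 and 26362.9, 29549.2 and 30577.8 in sh-SKA2-3, against 27614.1, 30185.7 and 31382.6 in sh-control. The sh-SKA2-1 sums lay below all control sums, by 11.8% at the mean, and those of hairpins 2 and 3 overlapped the control, at means 9.08% and 3.02% lower. Complex IV had a summed TPM of 5133 ± 33.4, 5675 ± 270 and 5836 ± 486 with hairpins 1, 2 and 3, against 6614 ± 492 in the control (SD, n = 3 each). The sums with hairpins 1 and 2 lay outside the control range, at 22.4% and 14.2% lower. Complex II went the other way on this scale, with 936 ± 14.0, 926 ± 11.03 and 857 ± 45.1 TPM, against 804 ± 66.3 TPM in the control. Its sum was 16.4% higher with hairpin 1 and 15.2% higher with hairpin 2, without overlap, but in CPM, which are not scaled to length, the same sums changed by -7.92% and -15.5%. The median of all genes also rose in log2(TPM + 1). Relative to it the complex II median stood at 0.03, -0.18 and 0.05 with hairpins 1, 2 and 3. Complexes I, III and V with hairpin 1 were 10.5%, 11.2% and 8.40% lower in summed TPM, each without overlap.

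**Figure D2:**
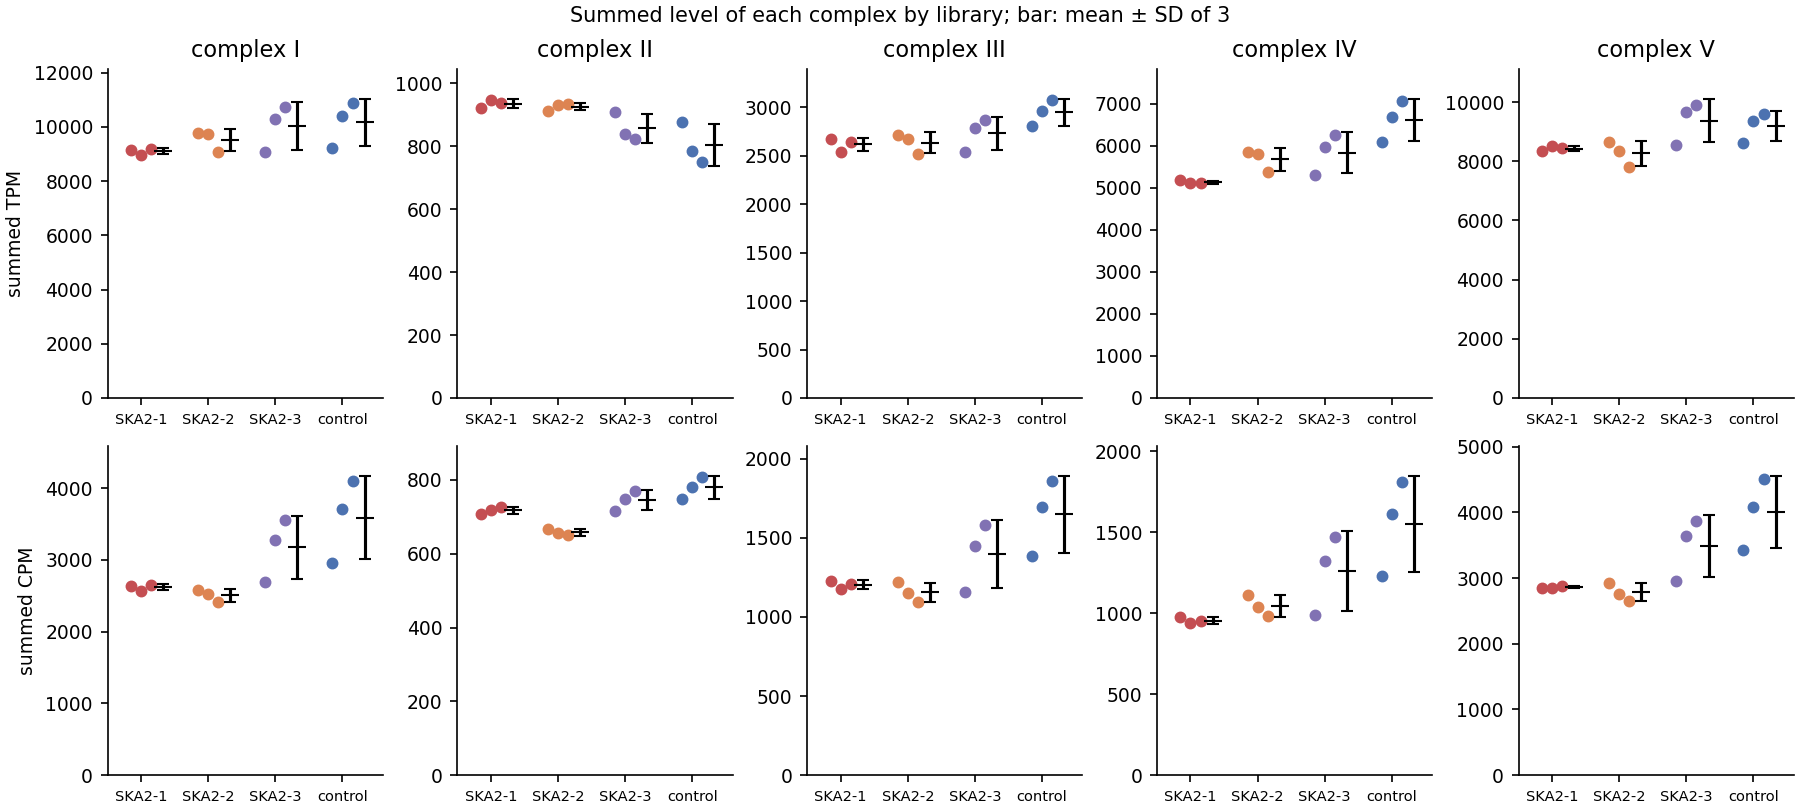
Summed level of each complex in each library, in TPM (top) and TMM-scaled CPM (bottom), with hairpin lines left of the control and the mean ± SD of 3 libraries beside the points. Complex IV was lower with hairpins 1 and 2 than in every control library on both scales, while complex II was higher in TPM and lower in CPM with both.

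Against the control, most tested members fell with hairpins 1 and 2 and fewer with hairpin 3, a direction that the fits with length offsets or a slope covariate did not keep for the median member. With hairpin 1, 54 of the 79 fell and 2 rose (edgeR, adjusted p under 0.05 over all 12868 genes tested), while over all genes 31.5% were called lower and 31.5% higher. With hairpin 2, 58 fell and 1 rose, while over all genes 37.8% were called lower and 36.6% higher. With hairpin 3, 18 fell and 5 rose, while over all genes 24.0% were called lower and 23.6% higher, so the share of members called lower there was close to the background. The members' median log2 fold change was -0.49 with hairpin 1, -0.49 with hairpin 2 and -0.18 with hairpin 3, against 0.01, -0.02 and 0.01 over all genes, but with length offsets, described further on, the members' medians were -0.01, 0.01 and -0.06. The 3 comparisons share the control libraries. In bulk RNA, fewer cells that hold a transcript and fewer copies per cell cannot be told apart.

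The hairpin 3 counts depended on the first libraries. Deviations of same-numbered hairpin 3 and control libraries from the mean of their own line correlated at 0.73, 0.17 and 0.60. Values for differently numbered libraries are not independent of these and are not given. In both lines the first library stood apart in length slope, so a pairing of samples cannot be told apart from that. With the replicate number as a block, a choice made from these data, a fit of those 6 libraries called 43 members lower and 13 higher. Over all genes that fit called 34.7% lower and 35.0% higher. Without the first sh-SKA2-3 and first sh-control libraries, 37 members were lower and 6 higher with hairpin 3. Leaving out the first control library alone gave 38 lower, and leaving out the third gave 10. All-gene shares of these fits with libraries left out are not given here. Such shares differ between fits as well, so these counts are not a result about the members alone. In a fit of the hairpin 3 and control groups with no block 4 members were lower, while over all genes 14.4% were called lower. Single subunits given below as not called with hairpin 3 passed the threshold as lower without the first control library: NDUFA10 was then at -0.25, UQCRH at -0.32, UQCRQ at -0.40, COX5B at -0.41, COX6B1 at -0.46, ATP5PB at -0.24 and ATP5MK at -0.38 (edgeR, adjusted p = 0.015, 0.045, 0.048, 0.031, 0.028, 0.016 and 0.035), and so was COX4I1, at -0.44 (0.011).

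With hairpins 1 and 2 the falls were spread over complexes I, III, IV and V. With length offsets the medians of complexes I and V lay between -0.05 and 0.06 with all hairpins. Over all genes 31.5%, 37.8% and 24.0% were called lower with hairpins 1, 2 and 3, and 31.5%, 36.6% and 23.6% higher. With hairpin 3 the shares of complexes I and V called lower were below that of all genes. In complex I, 22 of 36 fell and 1 rose with hairpin 1, 26 fell and none rose with hairpin 2, and 7 fell and 3 rose with hairpin 3, at medians -0.49, -0.50 and -0.16. In complex III, 7 of 9 fell with hairpin 1, 7 with hairpin 2 and 3 with hairpin 3, at medians -0.50, -0.60 and -0.20. In complex IV, 10 of 11 fell with hairpin 1, 8 with hairpin 2 and 4 with hairpin 3, at medians -0.70, -0.72 and -0.28. In complex V, 13 of 19 fell with hairpin 1, 14 with hairpin 2 and 2 with hairpin 3, at medians -0.46, -0.48 and -0.04. No member of complexes III, IV or V rose with any hairpin in the main edgeR fit or DESeq2, and 1, of complex V with hairpin 3, was higher at an unadjusted p under 0.05. In complex II, 2 of 4 fell and 1 rose with hairpin 1, 3 fell and 1 rose with hairpin 2, and 2 fell and 2 rose with hairpin 3, at medians -0.06, -0.29 and 0.03. With length offsets these medians, in the order of hairpins 1, 2 and 3, were 0.01, 0.04 and -0.05 for complex I, 0.26, 0.25 and 0.15 for complex II, -0.14, -0.05 and -0.06 for complex III, -0.23, -0.06 and -0.13 for complex IV and 0.06, -0.04 and 0.06 for complex V.

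**Figure D3:**
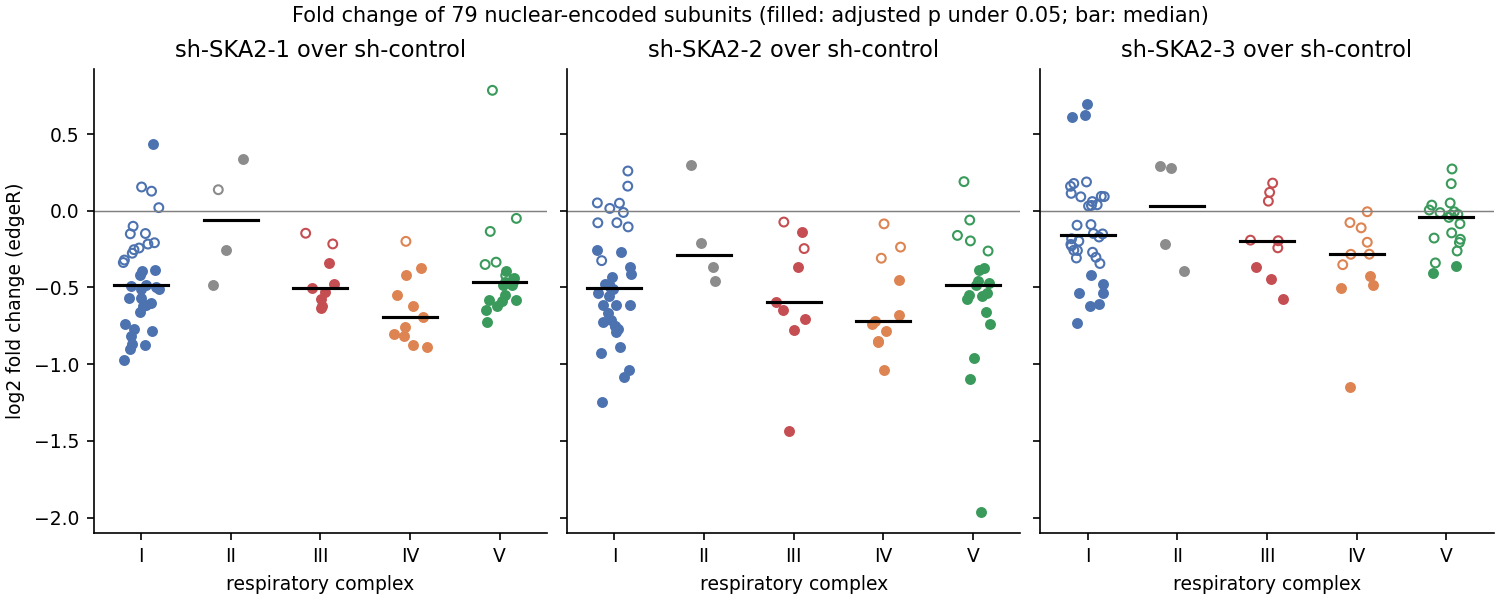
Log2 fold change of each of the 79 tested members with each hairpin over the control, by complex; filled points had an adjusted p under 0.05 and bars are medians. The medians of complexes I, III, IV and V lay between -0.46 and -0.72 with hairpins 1 and 2; with length offsets only complex IV kept a median below -0.20, at -0.23 with hairpin 1.

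In complex I the nuclear-encoded core subunits, which carry the flavin and the iron-sulphur clusters, had the lowest medians. The 7 core genes had medians of -0.66, -0.77 and -0.48 with hairpins 1, 2 and 3, and -0.32, -0.34 and -0.33 with length offsets, but with hairpin 2 the median was 0.04 with length and GC offsets and 0.01 with the slope covariate. The main fit called 5, 6 and 4 of them lower. Its medians were -0.42, -0.27 and -0.15 for the 9 accessory genes of the matrix arm and -0.45, -0.52 and -0.13 for the 20 of the membrane arm. Measured from the median of all genes in the same length bin, the core genes stood at -0.34, -0.37 and -0.31. NDUFV1, which binds NADH and the flavin, had 209, 208 and 200 CPM with hairpin 1, 167, 169 and 151 with hairpin 2 and 196, 271 and 284 with hairpin 3, against 301, 396 and 458 in the control. Every hairpin library lay below every control library. It fell by 0.90 ± 0.15 (log2, SE; adjusted p = 0.00055), 1.25 ± 0.16 (2.1e-05) and 0.62 ± 0.15 (0.0065) with hairpins 1, 2 and 3. NDUFS8, which holds iron-sulphur clusters, fell by 0.73 with hairpin 3, the largest fall of complex I there.

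Some accessory subunits of complex I went the other way with hairpin 3. NDUFA5, a matrix arm subunit, had 81.2, 76.6 and 85.3 CPM with hairpin 1, 53.2, 54.9 and 62.3 with hairpin 2 and 102, 95.2 and 93.4 with hairpin 3, against 65.5, 60.2 and 54.2 in the control. It rose by 0.43 ± 0.09 with hairpin 1 (adjusted p = 0.0015) and 0.69 ± 0.09 with hairpin 3 (8.3e-05), without overlap, and was at -0.08 ± 0.09 with hairpin 2. NDUFB3, of the membrane arm, had 28.7, 29.6 and 32.3 CPM with hairpin 1, 30.6, 30.2 and 27.9 with hairpin 2 and 39.6, 47.8 and 49.3 with hairpin 3, against 27.6, 28.6 and 33.2 in the control. Only the hairpin 3 libraries lay above the control range, and NDUFB3 rose there by 0.61 ± 0.10 (adjusted p = 0.00055). NDUFB4, also of the membrane arm, whose promoter holds the paired NRF1 match, had 67.0, 85.7 and 90.5 CPM with hairpin 3, against 43.6, 55.4 and 58.6 in the control, and rose by 0.63 ± 0.13 (adjusted p = 0.0023). These 3 genes were called higher with hairpin 3 in the main fit and in each of the 4 other fits compared below. NDUFA10, an accessory subunit of the membrane arm, fell by 0.39 ± 0.08 with hairpin 1 and 0.73 ± 0.08 with hairpin 2, and was at -0.18 ± 0.08 with hairpin 3.

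Complex II split by part. SDHC, 1 of the 2 membrane anchors, had 133, 133 and 138 CPM with hairpin 1, 140.1, 125 and 128 with hairpin 2 and 139, 123 and 129 with hairpin 3, against 109, 105 and 105 in the control. It rose by 0.34 ± 0.07, 0.30 ± 0.07 and 0.29 ± 0.07 (adjusted p = 0.0012, 0.0014 and 0.0039), each without overlap, and reads of CFAP126 on the other strand cannot be told apart from it where the 2 overlap. The size of its length correction depended on which length it was given, 1328 nt from the deposited values or 13566 nt for its longest principal transcript. SDHD, the other anchor, was at 0.14 ± 0.08 with hairpin 1, fell by 0.21 ± 0.08 with hairpin 2 (adjusted p = 0.037) and rose by 0.28 ± 0.08 with hairpin 3 (0.016). It had 150.4, 149.8 and 158 CPM with hairpin 1, 107, 127 and 126 with hairpin 2 and 169, 168 and 168 with hairpin 3, against 149.8, 142 and 124 in the control, and the hairpin 2 range overlapped the control. With length offsets SDHD stood at 0.33 with hairpin 2 (adjusted p = 0.042), called in the other direction. The hairpin 2 call was lost without any of 5 single libraries (the first or second sh-control, the first sh-SKA2-1, the first sh-SKA2-2 or the second sh-SKA2-3), at -0.13 to -0.21, and the hairpin 3 call without the third sh-control library, at 0.21. The catalytic subunits fell with each hairpin. SDHA, the flavoprotein, fell by 0.26 ± 0.07, 0.37 ± 0.07 and 0.22 ± 0.07, and SDHB, the iron-sulphur protein, fell by 0.49 ± 0.11, 0.46 ± 0.11 and 0.39 ± 0.11. The SDHA call with hairpin 3 was lost without the third sh-control library, at -0.16, or the first sh-SKA2-3 library, at -0.17, and with length offsets SDHB stood at 0.17 with hairpin 2, called higher (adjusted p = 0.0071).

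In complex III UQCRQ, a small subunit next to cytochrome b, had 52.0, 52.2 and 48.9 CPM with hairpin 1, 32.8, 28.7 and 26.6 with hairpin 2 and 51.2, 66.0 and 83.8 with hairpin 3, against 60.9, 85.0 and 91.8 in the control. The hairpin 2 libraries lay below all others. UQCRQ fell by 0.63 ± 0.18 with hairpin 1 (adjusted p = 0.0086) and 1.43 ± 0.18 with hairpin 2 (2.4e-05), and was at -0.24 ± 0.18 with hairpin 3. UQCRC2, a large structural subunit, fell by 0.34 ± 0.06, 0.14 ± 0.06 and 0.37 ± 0.06 with hairpins 1, 2 and 3. Its hairpin 2 call, at adjusted p = 0.046, was lost when any of 9 single libraries was left out, and with length offsets that value was 0.25, called higher (adjusted p = 0.00087). UQCRC1, its partner, fell by 0.53 ± 0.12, 0.78 ± 0.13 and 0.44 ± 0.12, and without the third control library the hairpin 3 value was -0.35 and no longer called. CYC1, the cytochrome c1 that hands electrons to cytochrome c, fell by 0.50 ± 0.14, 0.70 ± 0.14 and 0.58 ± 0.14. With length and GC offsets CYC1 turned to 0.22 with hairpin 1 (adjusted p = 0.00085) and 0.24 with hairpin 2 (0.00025). UQCRH fell by 0.62 ± 0.14 and 0.65 ± 0.14 with hairpins 1 and 2, was at -0.19 ± 0.14 with hairpin 3, and stood at 0.06 with hairpin 2 with length offsets. UQCRFS1, the iron-sulphur protein, and UQCRB were called with no hairpin in the main fit, at -0.25 to 0.18. The slope covariate called both higher with every hairpin, UQCRFS1 by 0.37, 0.59 and 0.36 and UQCRB by 0.23, 0.32 and 0.38, while length offsets called UQCRB lower with hairpins 1 and 2, at -0.88 and -1.07, at the 8188 nt given above.

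In complex IV COX8A had 130.0, 122 and 128 CPM with hairpin 1, 116, 118 and 110.1 with hairpin 2 and 136, 183 and 205 with hairpin 3, against 187, 243 and 273 in the control. The libraries of hairpins 1 and 2 lay below every control library and those of hairpin 3 overlapped it. COX8A fell by 0.89 ± 0.15 (adjusted p = 0.00048), 1.04 ± 0.15 (6.4e-05) and 0.42 ± 0.15 (0.033), and the hairpin 3 call was lost without any of 4 single libraries, at -0.28 to -0.46. COX6A1, a subunit that can bind adenine nucleotides, fell by 0.88 ± 0.15, 0.68 ± 0.14 and 0.50 ± 0.14, and the hairpin 3 call was lost without the third control library, at -0.36. COX5B, on the matrix side, fell by 0.76 ± 0.15 and 0.85 ± 0.15 with hairpins 1 and 2 and was at -0.28 ± 0.15 with hairpin 3. COX6B1 fell by 0.80 ± 0.18 and 0.78 ± 0.18 with hairpins 1 and 2, and COX7A2 by 0.55 ± 0.13 and 0.45 ± 0.13. With hairpin 2 both turned in fits that correct for length, COX7A2 to 0.26 with length offsets (adjusted p = 0.0017) and COX6B1 to 0.25 with the slope covariate (0.006). COX7B fell by 0.37 ± 0.14 with hairpin 1 (adjusted p = 0.032), a call lost without any of 4 single libraries, at -0.30 to -0.35. NDUFA4 had 123, 125 and 126 CPM with hairpin 1, 204, 171 and 167 with hairpin 2 and 125, 171 and 202 with hairpin 3, against 158, 205 and 212 in the control. It fell by 0.62 ± 0.16 with hairpin 1 and was at -0.09 ± 0.16 and -0.21 ± 0.16 with hairpins 2 and 3, and length offsets called it higher with hairpin 2, at 0.27 (adjusted p = 0.038). COX6B2, at under 2 CPM in each library, fell by 0.85 ± 0.31 and 1.15 ± 0.32 with hairpins 2 and 3, and the hairpin 2 call was lost without any of 3 single libraries, at -0.64 to -0.88. COX4I1, the subunit the pattern leaves out, fell by 0.67 ± 0.16 and 0.72 ± 0.16 with hairpins 1 and 2 and was at -0.26 ± 0.16 with hairpin 3. With hairpin 2 it turned to 0.19 with the slope covariate (adjusted p = 0.016) and 0.12 with length and GC offsets (0.02).

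In complex V all 5 genes of the F1 head, which makes the ATP, and of the central stalk fell with hairpins 1 and 2. ATP5F1A and ATP5F1B also fell with hairpin 3. Medians of these 5 were -0.55, -0.55 and -0.34, and with the slope covariate -0.04, -0.08 and 0.01. With length offsets they were -0.24, -0.25 and -0.13, with 4, 4 and 2 called lower and 0, 1 and 0 higher. ATP5F1B had 855, 880 and 883 CPM with hairpin 1, 903, 867.5 and 841 with hairpin 2 and 890, 1024 and 1073 with hairpin 3, against 1170, 1279 and 1387 in the control. Every hairpin library lay below every control library, and it fell by 0.55 ± 0.08 (adjusted p = 0.00023), 0.55 ± 0.08 (7.7e-05) and 0.36 ± 0.08 (0.004). ATP5F1A, the alpha subunit, fell by 0.48 ± 0.10, 0.54 ± 0.10 and 0.40 ± 0.10. In the peripheral stalk all 4 genes fell with hairpins 1 and 2, at medians -0.53 and -0.56 that were -0.02 and 0.04 with length offsets. With hairpin 3 edgeR called none of the 4, while 1 was lower at an unadjusted p under 0.05 and in DESeq2, and ATP5PB, its b subunit, fell by 0.48 ± 0.07 and 0.46 ± 0.07 and was at -0.19 ± 0.07 with hairpin 3. ATP5MK, also called DAPIT or USMG5, a membrane subunit at the dimer interface, had 43.4, 41.5 and 42.5 CPM with hairpin 1, 19.3, 17.1 and 14.9 with hairpin 2 and 47.8, 55.6 and 69.7 with hairpin 3, against 49.7, 70.9 and 79.2 in the control. The hairpin 2 libraries lay far below the rest. ATP5MK fell by 0.65 ± 0.17 (adjusted p = 0.0064) and 1.96 ± 0.18 (1.9e-06) with hairpins 1 and 2 and was at -0.21 ± 0.17 with hairpin 3. Its exons (chromosome 10, 103389041 to 103396492, minus strand, GRCh38) overlap those of TAF5 on the other strand, and TAF5 was at 0.28 ± 0.10, -0.56 ± 0.10 and 0.43 ± 0.10 with hairpins 1, 2 and 3. No strand-marking step is named in the protocol, and the part of such overlap in the ATP5MK values was not tested. The 3 c-ring genes and the inhibitor ATP5IF1, which blocks ATP hydrolysis, were not called against the control in the main fit. ATP5MC1 was at -0.34 ± 0.18, -0.26 ± 0.18 and 0.05 ± 0.18, ATP5MC2 at -0.35 ± 0.15, -0.16 ± 0.15 and 0.04 ± 0.15, ATP5MC3 at -0.05 ± 0.12, -0.20 ± 0.12 and 0.27 ± 0.12, and ATP5IF1 at -0.13 ± 0.13, -0.06 ± 0.13 and 0.18 ± 0.13. At an unadjusted p under 0.05, edgeR had 1 of these 4 lower with hairpin 1 and 1 higher with hairpin 3, and DESeq2 called 1 lower with hairpin 1. Without the first sh-control library ATP5MC1 was called lower with hairpins 1 and 2, ATP5MC2 with hairpin 1 and ATP5MC3 with hairpin 2, and ATP5MC3 was called higher with hairpin 3 without the third sh-control or the first sh-SKA2-3 library. Fits that correct for length pointed the other way: length offsets called 2, 2 and 3 of the c-ring genes and ATP5IF1 higher with hairpins 1, 2 and 3, as with hairpin 2 for ATP5MC2 at 0.53 (adjusted p = 1.7e-06) and ATP5IF1 at 0.63 (3.2e-05), and the slope covariate called all 4 higher with every hairpin.

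**Figure D4:**
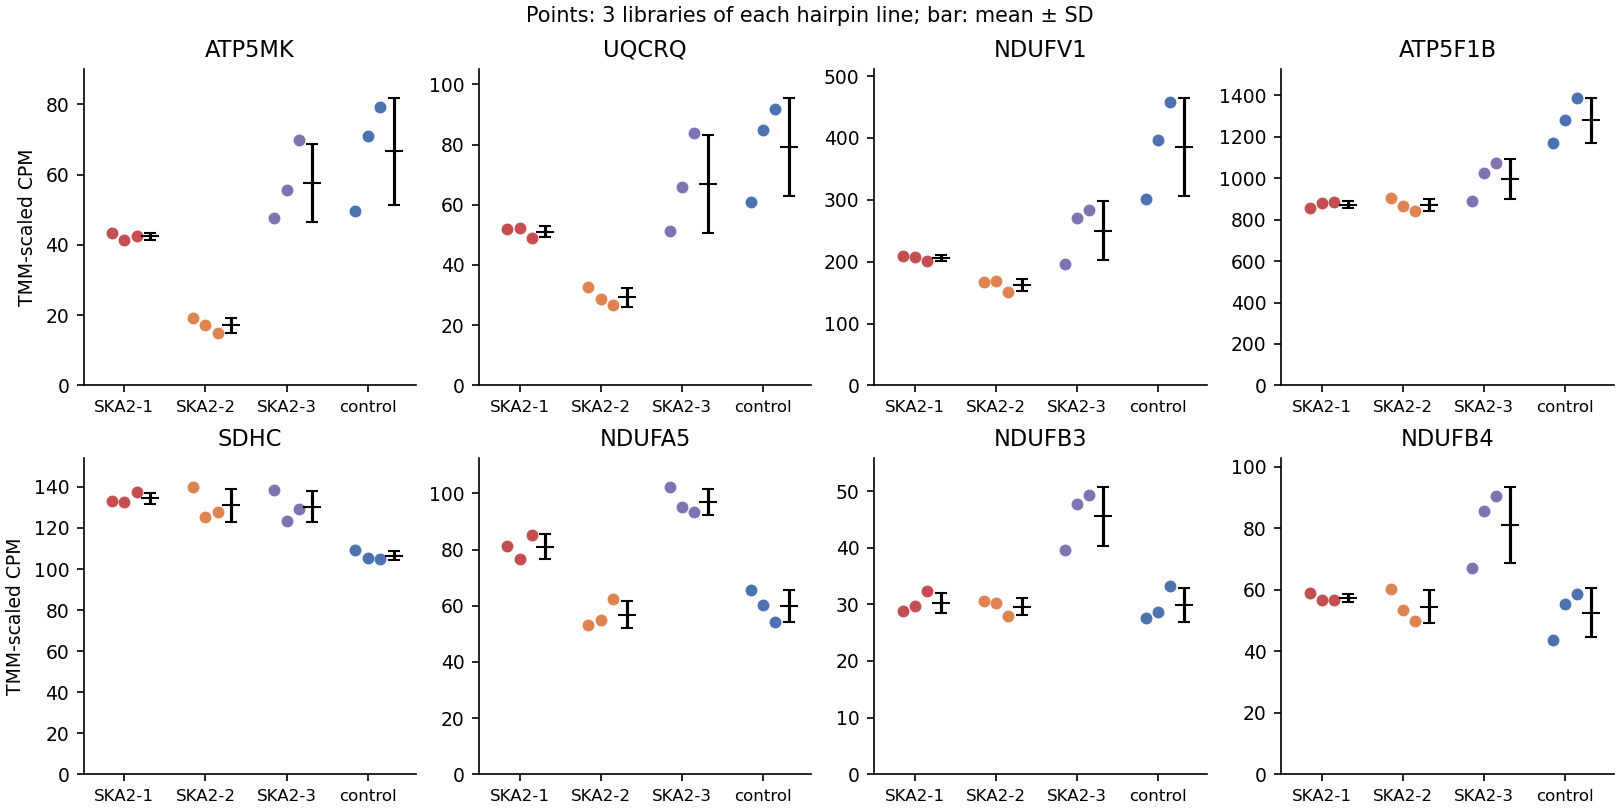
TMM-scaled CPM of 8 members in each library, hairpin lines left of the control, with the mean ± SD of 3 libraries beside the points. ATP5MK and UQCRQ are lowest with hairpin 2 (19.3 CPM or less and 32.8 CPM or less), NDUFV1 and ATP5F1B are below the control range with every hairpin, SDHC is above it with every hairpin, and NDUFA5, NDUFB3 and NDUFB4 are above it with hairpin 3.

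The hairpin lines were also compared with each other, which leaves the control libraries out of the difference. Hairpin 2 over hairpin 1 gave 3 members higher and 6 lower, while over all genes 28.2% were called higher and 29.4% lower. ATP5MK was lower by the largest margin (log2 difference -1.31 ± 0.18, adjusted p = 7.3e-05), then UQCRQ (-0.80 ± 0.18, 0.0027), and NDUFA5, NDUFC2, SDHD and NDUFA10 were at -0.51, -0.43, -0.35 and -0.34. NDUFA4 and NDUFB1 were higher by 0.54 ± 0.16 each (adjusted p = 0.013 and 0.012), and UQCRC2 by 0.20 ± 0.06. The NDUFA4 call was lost without the first hairpin 2 library, at 0.45. Without the first sh-control library these counts were 5 higher and 10 lower. Without the first sh-SKA2-3 library 8 were higher, and no all-gene shares are given here for either fit. These counts depended on the fit, and fitting only these 2 groups gave 16 higher and 24 lower, while over all genes 37.3% were called higher and 37.8% lower. With length offsets 24 were higher and 13 lower, while over all genes 33.9% and 32.6% were. NDUFB1, an accessory subunit of the membrane arm, had 25.3, 21.7 and 21.9 CPM with hairpin 2, against 17.1, 14.4 and 16.04 with hairpin 1.

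Hairpin 3 over hairpin 1 gave 4 members higher and none lower, while over all genes 4.75% were called higher and 4.70% lower; at an unadjusted p under 0.05 the same fit had 1 member lower, and DESeq2 called none lower and 21 higher. The 4 were NDUFB3 (0.59 ± 0.10, adjusted p = 0.0065), NDUFB4 (0.50 ± 0.13, 0.037), ATP5PF (0.44) and ATP5PB (0.30 ± 0.07), and the NDUFB4 call was lost without any of 9 single libraries, at 0.41 to 0.52. This count moved most with single libraries: 63 members were higher without the first hairpin 3 library, 35 without the first control library, 13 without the third control library, and 1 or 2 without any other. Hairpin 3 over hairpin 2 gave 39 members higher and 1 lower, while over all genes 33.4% were called higher and 31.9% lower, at a median of 0.36 that became 0.00 with length offsets. Without the first sh-SKA2-3 library 59 were higher and 2 lower. For the fits with a library left out, here and for hairpin 3 over hairpin 1, all-gene shares are not given. Their counts are therefore not a result about the members alone. ATP5MK (1.76 ± 0.18, adjusted p = 6.5e-06) and UQCRQ (1.19 ± 0.18, 0.00014) led, and UQCRC2 was lower (-0.23 ± 0.06, 0.0046), with 172, 184 and 195 CPM with hairpin 3, against 221, 213 and 211 with hairpin 2.

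Because the members are short and the libraries differ in their length slope, each comparison was set against genes of like length. In the shortest of the 10 length bins the median log2 fold change was -0.52, -0.67 and -0.20 with hairpins 1, 2 and 3, and in the longest bin it was 0.65, 0.82 and 0.34. Less the median of its own length bin, the median member stood at -0.06, -0.01 and -0.03. By complex the same measure was -0.07, 0.03 and -0.04 for complex I, 0.28, 0.27 and 0.13 for complex II, -0.10, -0.01 and -0.06 for complex III, -0.24, -0.07 and -0.08 for complex IV and 0.06, 0.01 and 0.12 for complex V. The 51 members under 1000 nt had medians of -0.51, -0.57 and -0.18, the 14 from 1000 to under 2000 nt -0.52, -0.54 and -0.30, and the 14 of 2000 nt or more -0.15, -0.22 and 0.01.

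**Figure D5:**
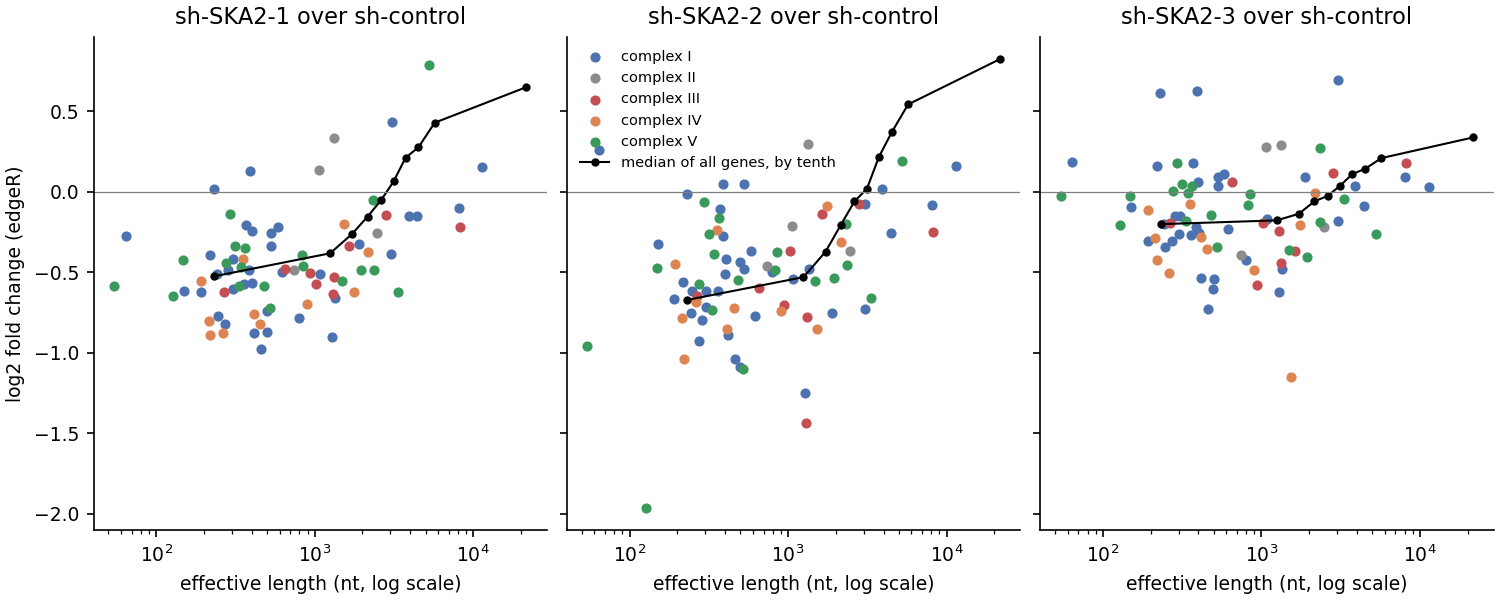
Log2 fold change of each tested member with each hairpin over the control against its effective length (log scale), coloured by complex, with the median of all genes in each of 10 length bins as the black line. The line climbs from -0.52, -0.67 and -0.20 in the shortest bin to 0.65, 0.82 and 0.34 in the longest, and most short members scatter about its left end.

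With offsets that take out each library's smooth trend on length, 17 members were called higher and 29 lower with hairpin 1 (29.5% and 30.9% of all genes), 29 higher and 23 lower with hairpin 2 (36.6% and 37.1%), and 18 higher and 24 lower with hairpin 3 (27.5% and 28.2%). In the fit that has the length slope of the library as a covariate, 27 were higher and 9 lower with hairpin 1 (19.6% and 21.1% of all genes), 38 higher and 10 lower with hairpin 2 (27.5% and 30.8%), and 34 higher and 19 lower with hairpin 3 (29.6% and 29.7%). The slopes of hairpins 1 and 2 do not overlap those of the control, so in that fit hairpin and slope can hardly be told apart. In log2(TPM + 1) the median of all genes itself moved to 0.29, 0.33 and 0.12, and relative to it the members' medians were -0.39, -0.38 and -0.14. What the length trend comes from was not tested.

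Some calls held in each of 5 fits. The 5 fits compared were the main one, length offsets, length and GC offsets, the slope covariate and limma on log2(TPM + 1). The last of these fits no length trend. With hairpin 1, members called lower in all 5 included NDUFB9, NDUFV1, COX6A1 and ATP5F1B, and SDHC was called higher. With hairpin 2, NDUFV1, UQCRQ, ATP5F1B and ATP5MK were called lower in all 5. With hairpin 3, members called lower in all 5 included NDUFA6, NDUFB9, NDUFC1, NDUFS8, NDUFV1, SDHB, CYC1, UQCRC2, COX5A, COX6A1, ATP5F1A and ATP5F1B. The 5 called higher in all 5 with hairpin 3 were NDUFA5, NDUFB3, NDUFB4, SDHC and SDHD. Of these hairpin 3 calls, those of NDUFA6, NDUFB9, COX5A, COX6A1 and SDHD were lost in the main fit without some single library. All 5 fits take their spread from the 4 lines together. The edgeR fit of only the hairpin 3 and control groups called 4 members lower (14.4% over all genes). Most of the lower calls listed for hairpin 3 were thus lost there. Length offsets put NDUFV1 at -0.54, -0.73 and -0.44, ATP5F1B at -0.24, -0.11 and -0.20, ATP5MK at 0.01, -1.23 and -0.07 and SDHC at 0.67, 0.78 and 0.48 with hairpins 1, 2 and 3.

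Genes that assemble, feed or regulate the chain were read from lists outside the members, whose counts are from the main fit and stand against the all-gene shares given above for each hairpin. Of 17 complex I assembly factors 10, 13 and 4 fell with hairpins 1, 2 and 3 and 1, 2 and none rose, while length offsets called 2, 5 and 4 lower and 4 higher with each. ECSIT, 1 of these, had 18.1, 15.8 and 15.4 CPM with hairpin 2, against 37.9, 49.7 and 55.4 in the control, and fell by 1.54 ± 0.18. The 4 complex II factors had 1 higher and 1 lower with hairpin 1, 1 lower with hairpin 2 and 2 higher with hairpin 3, and SDHAF3 rose by 0.33 ± 0.11 with hairpin 1 and 0.44 ± 0.11 with hairpin 3 and fell by 0.50 ± 0.12 with hairpin 2, of which the hairpin 1 call was lost without any of 3 single libraries, at 0.26 to 0.32. Of 6 complex III factors 2, 3 and 2 fell and 2, 2 and 1 rose, and BCS1L, which inserts the iron-sulphur protein, fell by 0.88 ± 0.12, 1.21 ± 0.12 and 0.58 ± 0.11. Of 21 complex IV factors 7, 8 and 4 fell and 5, 4 and 3 rose, a balance that turned with length offsets, to 5, 4 and 4 lower and 11, 12 and 7 higher. TACO1, a translational activator of COX1, fell by 0.63 ± 0.12, 1.03 ± 0.12 and 0.37 ± 0.12, the last call lost without any of 4 single libraries, at -0.27 to -0.39. Of 5 complex V factors none, 3 and 1 fell and 1 rose with each hairpin, and TMEM70 was at -0.04 ± 0.10 with hairpin 1, fell by 0.85 ± 0.10 with hairpin 2 and was at 0.04 ± 0.10 with hairpin 3.

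Among 14 regulators of mitochondrial biogenesis 3, 5 and 2 fell and 5, 4 and 4 rose, while length offsets called 4, 7 and 5 lower and 6, 1 and 3 higher. ESRRA, the oestrogen-related receptor alpha, a nuclear receptor known to drive respiratory genes with PGC-1 coactivators, had 55.3, 53.2 and 56.6 CPM with hairpin 1, 80.96, 87.1 and 76.8 with hairpin 2 and 42.8, 49.98 and 48.7 with hairpin 3, against 130.0, 139.6 and 143 in the control. Every hairpin library lay below every control library, and ESRRA fell by 1.32 ± 0.08 (adjusted p = 1.7e-07), 0.75 ± 0.08 (4.2e-06) and 1.54 ± 0.08 (5.2e-08). Other regulators of the list rose in the main fit. YY1 rose by 0.575, 0.259 and 0.336 with hairpins 1, 2 and 3. GABPA, a GABP gene, rose by 1.004 and 0.746 with hairpins 1 and 3. TFAM rose by 0.68 and 0.54 with the same hairpins, and PPARGC1B by 1.185 and 1.104 with hairpins 1 and 2. NRF1 was called with no hairpin, and TFB1M fell with each, at -0.42, -0.98 and -0.51. Values of these single genes with length offsets are not given here. Of 18 genes of ubiquinone synthesis and electron or nucleotide carriers 11, 11 and 2 fell and 1, 2 and 1 rose, while length offsets called 3, 8 and 4 lower and 4, 5 and 3 higher. PDSS1, which makes the ubiquinone side chain, had 8.53, 10.2 and 9.03 CPM with hairpin 2, against 23.0, 22.2 and 23.0 in the control, and fell by 1.30 ± 0.10. CYCS, cytochrome c itself, fell by 0.31 ± 0.06, 0.24 ± 0.06 and 0.35 ± 0.06. For comparison, of 78 mitochondrial ribosomal protein genes 52, 70 and 18 fell and 3, 1 and 6 rose, at medians -0.44, -0.70 and -0.14, which with length offsets were -0.08, -0.24 and 0.05. Of 81 cytosolic ribosomal protein genes 73, 79 and 2 fell and none, none and 1 rose, at medians -0.54, -0.78 and -0.11, which with length offsets were -0.04, -0.16 and 0.05.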

How the data were processed

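RNA from 12 libraries of 4 stable SNU638 lines, 3 each, was analysed from 1 deposited gene table. Expected counts, FPKM and TPM per gene and library are as the authors deposited them, per the file headers. The submitters' processing notes name HISAT, Bowtie2, RSEM, DESeq2 and GRCh38.p13, without roles or versions. The authors' 15 columns of group means were not used. Expected counts were rounded and fitted with edgeR 4.0.16 (R 4.3.3; TMM, filterByExpr, quasi-likelihood test, all 12 libraries and 4 groups in 1 model), with Benjamini-Hochberg adjustment over 12868 genes and a threshold of 0.05, two-sided. The residual degrees of freedom were 8 and the common biological coefficient of variation 0.111. DESeq2 1.42.0, limma 3.58.1 on log2(TPM + 1), other scalings, length and GC corrections, replicate blocks and libraries left out were alternatives. The plain edgeR, DESeq2 and limma fits were tested on simulated counts, for hairpin 1 over the control, with limma on log2 CPM. The length and GC corrections, the slope covariate and the replicate blocks were not tested in this way.

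Length is the effective length implied by the deposited counts and FPKM, and length offsets remove a smooth trend (lowess, span 0.3) per library. Deviations of same-numbered sh-SKA2-3 and sh-control libraries correlated at 0.73, 0.17 and 0.60, and no other pair of lines met the rule used. A block on these numbers was therefore tried, from the data and not from the labels. Deviations were taken from the mean of each line, so values for differently numbered libraries are not independent of these and are not given. The first library of both lines stood apart in length slope. The samples were thus not shown to be paired. Promoters are RefSeq entries of GRCh38.p14, the first where a gene had several (8 members), and gene coordinates and overlaps are from GENCODE. Exons of 33 members overlap another gene on the other strand and those of 26 on the same strand. Members, lists and tests were chosen with earlier results of these data known. Named genes are SKA2; up to 2 members per complex and hairpin with the smallest adjusted p at a mean of at least 1 CPM; the 2 largest called differences each way between hairpins; members called in opposite directions; the 2 largest rises per hairpin; isoform sets; the inhibitor; and leading genes of each list. A few others that stand in counts were named after their values were seen. A gene that the rule names is not reported here.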

Additional observations from a re-analysis of the deposited data

Results flagged for a closer look

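Between hairpin lines, 53 differences in single members were past the threshold of the test of the difference itself (edgeR, adjusted p under 0.05). Over all genes the same fit called 28.2% higher and 29.4% lower for hairpin 2 over hairpin 1. For hairpin 3 over hairpin 1 it called 4.75% and 4.70%, and for hairpin 3 over hairpin 2 33.4% and 31.9%. With length offsets the members' median for hairpin 3 over hairpin 2 was 0.0006. The 2 largest called differences in each direction of each comparison follow, or fewer where fewer were called. ATP5MK was lower with hairpin 2 than with hairpin 1 by a log2 difference of -1.31, and higher with hairpin 3 than with hairpin 2 by 1.76. UQCRQ was likewise lower with hairpin 2 than with hairpin 1, at -0.80, and higher with hairpin 3 than with hairpin 2, at 1.19. NDUFA4 and NDUFB1 were each higher with hairpin 2 than with hairpin 1 by 0.54. UQCRC2 was lower with hairpin 3 than with hairpin 2, at -0.23. NDUFB3 and NDUFB4 were higher with hairpin 3 than with hairpin 1, at 0.59 and 0.50.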

How the results depend on the processing

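Alternatives on counts that leave the length trend in place kept the direction of the members' medians. Those that take it out moved or turned medians as listed below, and the cause was not tested. The limma fits on TPM, which fit no length trend, also moved or turned medians. In log2(TPM + 1) the median of all genes moved as well, as given above. RLE size factors and no filter on low counts left the counts of members called within 1.5 times of the values reported, as did DESeq2 apart from hairpin 3 over hairpin 1. The replicate numbers of sh-SKA2-3 and sh-control were used as a block because same-numbered deviations correlated, which was not shown to be a pairing. Other pairs of lines share only a number, and the block fits below are given for both. The added choices, namely length offsets from GENCODE lengths, the block in a fit of 2 groups and the first libraries left out, were made after seeing the data. Shares over all genes are not given beside the counts below. They differ between fits as well, so a changed count is not a result about the members alone. With the slope covariate the count of members was 27 higher and 9 lower for hairpin 1 over the control, 38 higher and 10 lower for hairpin 2 over the control, 34 higher for hairpin 3 over the control, 39 higher and 13 lower for hairpin 2 over hairpin 1, 10 higher and 8 lower for hairpin 3 over hairpin 1 and 14 higher and 34 lower for hairpin 3 over hairpin 2. With length offsets the count of members was 17 higher and 29 lower for hairpin 1 over the control, 29 higher and 23 lower for hairpin 2 over the control, 18 higher for hairpin 3 over the control, 24 higher and 13 lower for hairpin 2 over hairpin 1, 7 higher and 3 lower for hairpin 3 over hairpin 1 and 17 higher and 27 lower for hairpin 3 over hairpin 2. With length and GC offsets the count of members was 25 higher and 26 lower for hairpin 1 over the control, 31 higher and 24 lower for hairpin 2 over the control, 23 higher for hairpin 3 over the control, 25 higher and 14 lower for hairpin 2 over hairpin 1, 8 higher and 10 lower for hairpin 3 over hairpin 1 and 19 higher and 28 lower for hairpin 3 over hairpin 2. With limma on log2(TPM + 1) the count of members was 12 higher and 24 lower for hairpin 1 over the control, 19 higher and 26 lower for hairpin 2 over the control, 16 higher for hairpin 3 over the control, 18 higher and 13 lower for hairpin 2 over hairpin 1, 4 lower for hairpin 3 over hairpin 1 and 14 lower for hairpin 3 over hairpin 2. With limma on log2(TPM + 0.1) the count of members was 12 higher and 24 lower for hairpin 1 over the control, 19 higher and 26 lower for hairpin 2 over the control, 16 higher for hairpin 3 over the control, 17 higher and 12 lower for hairpin 2 over hairpin 1, 4 lower for hairpin 3 over hairpin 1 and 25 higher and 14 lower for hairpin 3 over hairpin 2. With length offsets from GENCODE lengths the count of members was 14 higher and 32 lower for hairpin 1 over the control, 19 higher and 29 lower for hairpin 2 over the control, 16 higher for hairpin 3 over the control, 26 higher for hairpin 2 over hairpin 1, 9 higher and 1 lower for hairpin 3 over hairpin 1 and 22 higher and 17 lower for hairpin 3 over hairpin 2. With the first sh-control and first sh-SKA2-3 libraries left out the count of members was 4 higher for hairpin 1 over the control, 2 higher for hairpin 2 over the control, 37 lower for hairpin 3 over the control, 15 higher and 24 lower for hairpin 2 over hairpin 1, 70 higher and 1 lower for hairpin 3 over hairpin 1 and 68 higher and 2 lower for hairpin 3 over hairpin 2. With a replicate block in a fit of 2 groups the count of members was 13 higher and 43 lower for hairpin 3 over the control, 16 higher and 25 lower for hairpin 2 over hairpin 1, 0 higher for hairpin 3 over hairpin 1 and 0 lower for hairpin 3 over hairpin 2. With only the 2 groups compared in the fit the count of members was 4 lower for hairpin 3 over the control, 16 higher and 24 lower for hairpin 2 over hairpin 1 and 1 higher for hairpin 3 over hairpin 1. With a replicate block in the 4-group fit the count of members was 5 higher for hairpin 2 over hairpin 1. With DESeq2 the count of members was 21 higher for hairpin 3 over hairpin 1. The median log2 fold change of all members for hairpin 1 over the control was 0.11 with the slope covariate, -0.0051 with length offsets, -0.038 with length and GC offsets, -0.10 with limma on log2(TPM + 1), -0.10 with limma on log2(TPM + 0.1), -0.13 with length offsets from GENCODE lengths and -0.062 less the length bin median. The median log2 fold change of all members for hairpin 2 over the control was 0.17 with the slope covariate, 0.0088 with length offsets, 0.046 with length and GC offsets, -0.046 with limma on log2(TPM + 1), -0.046 with limma on log2(TPM + 0.1), -0.036 with length offsets from GENCODE lengths and -0.0092 less the length bin median. The median log2 fold change of all members for hairpin 2 over hairpin 1 was 0.094 with the slope covariate, 0.066 with length offsets, 0.053 with length and GC offsets, 0.031 with limma on log2(TPM + 1), 0.036 with limma on log2(TPM + 0.1), 0.060 with length offsets from GENCODE lengths and 0.074 less the length bin median. The median log2 fold change of all members for hairpin 3 over hairpin 1 was -0.0023 with length and GC offsets. The median log2 fold change of all members for hairpin 3 over hairpin 2 was -0.094 with the slope covariate, 0.0006 with length offsets, -0.045 with length and GC offsets and -0.0034 less the length bin median. The sign of the log2 fold change turned with limma on log2(TPM + 1) for hairpin 1 over the control NDUFA10 0.080, SDHA 0.12, UQCRC2 0.039, COX7B 0.014, ATP5MC3 0.34, CYCS 0.074, TMEM70 0.34, PDSS1 0.13 and for hairpin 2 over the control NDUFB3 0.40, SDHA 0.071, UQCRC2 0.30, NDUFA4 0.36, SDHD 0.22, ATP5MC2 0.28, ATP5MC3 0.26, ATP5IF1 0.48, CYCS 0.19. The sign of the log2 fold change turned with the slope covariate for hairpin 2 over the control NDUFB3 0.41, SDHB 0.083, UQCRC2 0.0039, UQCRH 0.11, CYC1 0.050, COX6A1 0.11, NDUFA4 0.75, COX6B1 0.25, COX7A2 0.22, COX7B 0.38, ATP5MC1 0.76, ATP5MC2 0.66, ATP5MC3 0.44, COX4I1 0.19, ATP5IF1 0.50, for hairpin 1 over the control UQCRQ 0.11, UQCRC1 0.0079, CYC1 0.094, ATP5MK 0.045, NDUFA4 0.037, NDUFB1 0.34, COX6B1 0.022, COX7B 0.18, ATP5MC1 0.47, ATP5MC2 0.30, ATP5MC3 0.45, COX4I1 0.043, ATP5IF1 0.31, ECSIT 0.22, TMEM70 0.27 and for hairpin 3 over the control COX7A2 0.13, COX7B 0.24. The sign of the log2 fold change turned with length offsets for hairpin 2 over the control NDUFB3 0.69, SDHB 0.17, UQCRC2 0.25, UQCRH 0.057, COX6A1 0.027, NDUFA4 0.27, SDHD 0.33, COX7A2 0.26, ATP5MC1 0.44, ATP5MC2 0.53, ATP5IF1 0.63, SDHAF3 0.15 and for hairpin 1 over the control ATP5MK 0.014, NDUFB1 0.42, COX7A2 0.070, ATP5MC1 0.25, ATP5MC2 0.22, ATP5IF1 0.45, TMEM70 0.21, PDSS1 0.10. The sign of the log2 fold change turned with length and GC offsets for hairpin 2 over the control NDUFB3 0.54, SDHB 0.12, UQCRC2 0.14, CYC1 0.24, COX6A1 0.071, SDHD 0.11, COX6B1 0.060, COX7A2 0.070, ATP5MC1 0.52, ATP5MC2 0.70, COX4I1 0.12, ATP5IF1 0.62 and for hairpin 1 over the control UQCRC1 0.057, CYC1 0.22, NDUFB1 0.38, ATP5MC1 0.37, ATP5MC2 0.39, COX4I1 0.038, ATP5IF1 0.48, ECSIT 0.15. Summed levels of all members changed by -27.8%, -29.6% and -12.99% with hairpins 1, 2 and 3 in CPM, and by -28.6% and -29.4% with hairpins 1 and 2 in FPKM. In the 150 bases nearest the start the NRF1 core stood in 9.23% of member promoters. The same window held it in 3.85% of the tested genes' promoters and 2.31% of all. Leaving out 1 library at a time gave ranges of for hairpin 1 over the control -0.60 to -0.39 (median), 2 to 2 (members higher) and 42 to 67 (members lower); for hairpin 2 over the control -0.63 to -0.40 (median), 1 to 1 (members higher) and 44 to 62 (members lower); for hairpin 2 over hairpin 1 -0.07 to -0.00 (median), 2 to 8 (members higher) and 5 to 10 (members lower); for hairpin 3 over the control -0.29 to -0.05 (median), 5 to 6 (members higher) and 10 to 38 (members lower); for hairpin 3 over hairpin 1 0.24 to 0.50 (median), 1 to 63 (members higher) and 0 to 1 (members lower); for hairpin 3 over hairpin 2 0.24 to 0.50 (median), 29 to 59 (members higher) and 1 to 2 (members lower). With 3 libraries a line, counts near a threshold turn on single libraries, and COX6B2 and COX8C have too few reads for a firm value.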
